A study of Homo sapiens with 6 samples.

Results

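Cytochrome P450 genes were followed in SKBR3, an established human HER2-positive breast cancer cell line, by RNA sequencing. The members were all protein-coding genes whose symbol is CYP, digits, letters and digits, without CYP51A1, CYP1A1, CYP1A2 and CYP1B1. The rule gave 51 of the 60612 genes in the count tables, in 5 classes: 16 CYP2, 4 CYP3, 12 CYP4, 14 steroid and sterol P450s, and 5 retinoid and orphan P450s. One group, called trastuzumab here, was 3 libraries of SKBR3 kept for 30 weeks in trastuzumab, a HER2 antibody, at rising concentration, in order to follow secondary resistance. The other group, called parental here, was 3 libraries of untreated SKBR3. Whether the antibody was present at harvest is not stated, and both groups derive from 1 cell line. The labels do not say that replicates came from separate cultures, so each p-value measures only the spread between these libraries, which may be technical.

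P450 enzymes are haem proteins that insert an oxygen atom into their substrates. Those in the endoplasmic reticulum take electrons from NADPH through P450 oxidoreductase, and the mitochondrial ones take them through ferredoxin reductase and ferredoxin. The CYP2 and CYP3 families are best known for handling drugs and other foreign compounds in liver, gut and airway. CYP4 enzymes hydroxylate fatty acids and related lipids. The steroid and sterol enzymes make and break down steroid hormones, bile acids and vitamin D, and the CYP26 enzymes degrade retinoic acid. In breast tissue the family is known mainly for aromatase, which makes oestrogen, and for CYP4Z1, whose RNA is largely restricted to the mammary gland.

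Each library held 71015138 to 82857810 counts in the trastuzumab group and 71767118 to 72353624 in the parental group. Levels are CPM, each gene's count scaled to library depth, unless stated otherwise. All 10 luminal breast markers examined were detected, with summed levels of 23343 to 25102 CPM in trastuzumab libraries and 20084 to 21839 CPM in parental libraries. The sum was led by ERBB2, which was higher. Of the 10 markers, edgeR called 3 higher and 4 lower, and 1 higher and 6 lower with GC content and length as offsets. Hepatocyte markers summed to 4.76 to 5.84 CPM in trastuzumab and 4.76 to 6.86 CPM in parental libraries, with ALB, APOC3, TTR, AHSG and HP at 0 in all 6. Adrenal and gonadal markers summed to 3.05 to 3.10 CPM in trastuzumab and 2.72 to 4.25 CPM in parental libraries, with STAR, MC2R and CYP17A1 at 0 in all 6. Immune markers summed to 42.7 to 49.2 CPM in trastuzumab and 14.8 to 17.3 CPM in parental libraries. Most of that was CD68, at 43.0 CPM in trastuzumab and 14.8 CPM in parental libraries. Of 4 tested immune markers, edgeR called 2 higher and 0 lower, and 1 higher and 0 lower with GC content and length as offsets. Without CD68 the sum was 1.76 to 2.22 CPM in trastuzumab and 1.13 to 1.55 CPM in parental libraries. The defining leukocyte marker PTPRC stood at 0.132 CPM in trastuzumab and 0.181 CPM in parental libraries. Fibroblast and endothelial markers summed to 84.8 to 95.7 CPM in trastuzumab and 39.3 to 47.4 CPM in parental libraries. There CDH5 made up most of the sum, at 79.3 CPM in trastuzumab and 26.4 CPM in parental libraries. It was the 1 of 8 markers called higher, COL1A1 was called lower, the median log2 fold change was -0.41, and without CDH5 the sum was 9.62 to 13.3 CPM in trastuzumab and 13.0 to 22.2 CPM in parental libraries. The endothelial marker PECAM1 stood at 0.176 CPM in trastuzumab and 0.0678 CPM in parental libraries. In these bulk libraries, a change in the number of cells that express a gene and a change in RNA per cell cannot be told apart.

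Of the 51 members, 12 had no count in any library, 14 had counts but fell below the expression filter, and 25 were tested. By edgeR's quasi-likelihood test with Benjamini-Hochberg adjustment over all 17854 tested genes, 10 of the 25 were higher in trastuzumab libraries and 2 were lower at an adjusted p below 0.05. Those are 40% and 8% of the members tested, against 23.9% and 25.4% of all tested genes. In either direction 12 members, or 48%, were called, against 49.3% of all tested genes, so the share of members that changed was near the background. The groups did not overlap for 12 members, also 48%, against 57.5% of all tested genes. The median log2 fold change was 0.38 over the tested members and -0.0057 over all tested genes. Of the 25 members, 14 averaged under 1 CPM in at least 1 group, and a gene such as CYP2A13, at 0 in parental libraries, passed the filter only through the group where it was high, so these counts are a description. Among the 11 that averaged 1 CPM or more in both groups, 4 were higher and 2 lower, against 32.1% and 33.3% of all genes at that level. By class, the test called 6 CYP2 genes higher and 2 lower of 9 tested, 4 CYP4 genes higher of 7, and none of the 1 CYP3, 5 steroid and sterol and 3 retinoid and orphan genes tested.

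**Figure D1:**
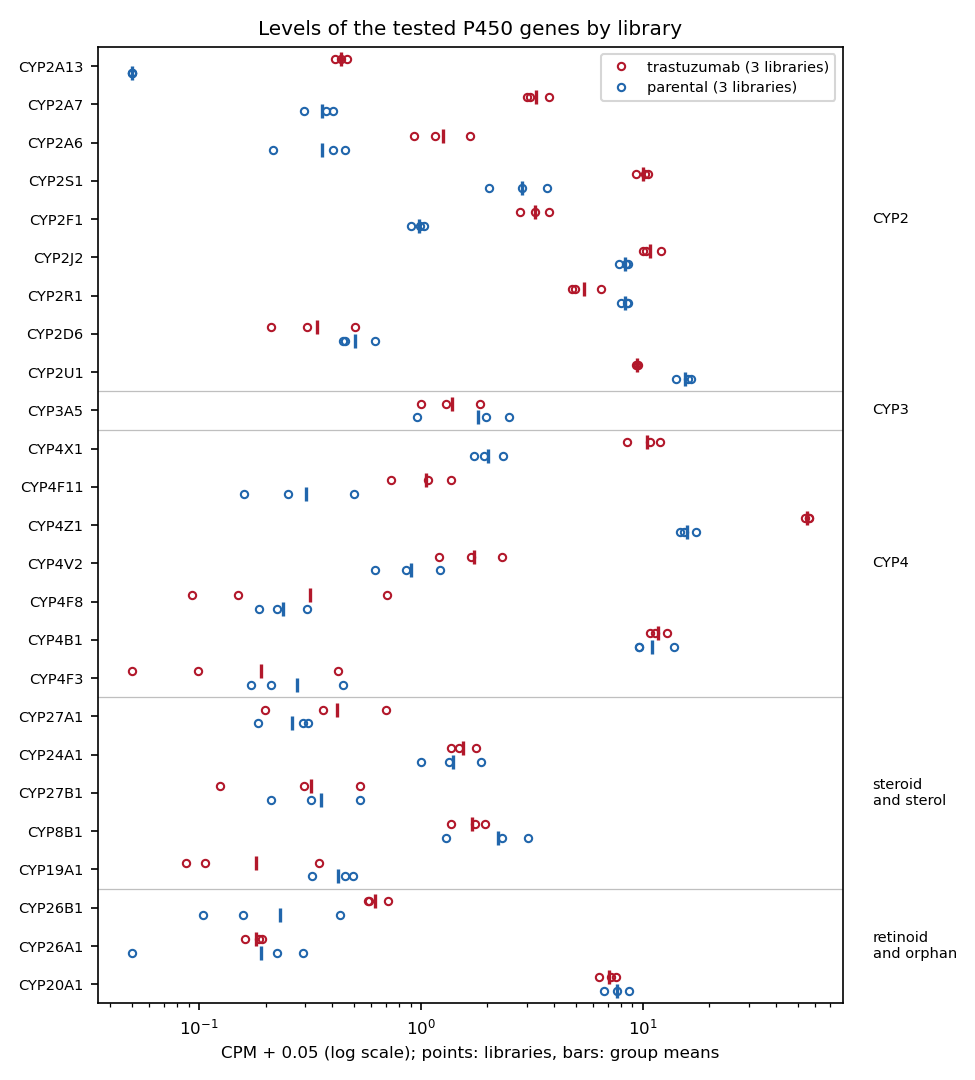
Level of each tested P450 gene in every library, in CPM plus 0.05 on a log scale, with 3 trastuzumab libraries (red) above 3 parental libraries (blue) in each row and bars at the group means. The CYP2A genes, CYP2S1, CYP2F1, CYP4X1 and CYP4Z1 show no overlap between the groups.

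CYP4Z1, a fatty acid hydroxylase, was 3.49-fold higher in trastuzumab libraries and, per gene length, was the most abundant member in both groups. CYP4X1, its neighbour on chromosome 1 and an enzyme found largely outside the liver, was 5.30-fold higher. CYP4F11, which hydroxylates fatty acids and vitamin K, and CYP4V2, a fatty acid hydroxylase whose loss causes a crystalline retinal disease, were also higher, both at low levels. CYP4B1, a lung and bladder P450 in the same chromosome 1 cluster, did not pass the test.

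CYP4Z1 had 56.1, 53.5 and 56.1 CPM in trastuzumab libraries and 15.4, 14.7 and 17.3 CPM in parental libraries. The libraries of each group lay close together and far from the other group. Its log2 fold change was 1.80 ± 0.078 (SE, n = 3 per group, edgeR adjusted p = 4.10e-11). CYP4X1 had 11.9, 8.46 and 10.8 CPM in trastuzumab libraries and 1.69, 2.31 and 1.87 CPM in parental libraries. The lowest trastuzumab library was again above every parental library, and the log2 fold change was 2.41 ± 0.17 (SE, n = 3 per group, edgeR adjusted p = 1.34e-08).

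CYP4F11 had 1.03, 0.682 and 1.32 CPM in trastuzumab libraries and 0.203, 0.448 and 0.110 CPM in parental libraries. The groups did not overlap, and the log2 fold change was 1.99 ± 0.52 (SE, n = 3 per group, edgeR adjusted p = 0.00414). CYP4F11 had 15, 33 and 8 counts in parental libraries and passed the filter only through the trastuzumab group, so this call is a description. CYP4V2 had 1.63, 1.16 and 2.27 CPM in trastuzumab libraries and 1.18, 0.570 and 0.811 CPM in parental libraries. The second trastuzumab library lay below the first parental library, so the groups overlapped. Its log2 fold change was 0.98 ± 0.34 (SE, n = 3 per group, edgeR adjusted p = 0.0256). That call was lost when any 1 of 4 libraries was left out, with adjusted p-values of 0.162 without the third and 0.0507 without the first trastuzumab library, and of 0.104 without the second and 0.0715 without the third parental library. CYP4V2 also overlaps KLKB1 on the same strand, and how reads shared by both were counted is not given in the sources used here.

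The remaining tested CYP4 genes did not pass. CYP4B1 had 11.3, 12.8 and 10.8 CPM in trastuzumab libraries and 9.60, 9.59 and 13.9 CPM in parental libraries, so the groups overlapped fully, with a log2 fold change of 0.080 ± 0.14 (edgeR adjusted p = 0.689). CYP4F3, the leukotriene B4 hydroxylase, averaged 0.141 ± 0.203 CPM in trastuzumab and 0.228 ± 0.149 CPM in parental libraries (SD, n = 3 each). CYP4F8, a prostaglandin hydroxylase of seminal vesicles, averaged 0.266 ± 0.339 CPM in trastuzumab and 0.190 ± 0.0616 CPM in parental libraries (SD, n = 3 each). At these counts a difference was not detectable for either. The CYP4F genes lie together on chromosome 19 and are alike in sequence, so reads may have been split between them.

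The start regions of the chromosome 1 pair are shown because both genes were higher and lie side by side on the plus strand. They are the 250 bases before the RefSeq start (GRCh38.p14), chr1:47066981-47067230 for CYP4Z1 and chr1:47023419-47023668 for CYP4X1, both 5′ to 3′. RefSeq promoter entries matched 36 of the 51 members. Capitals mark matches on either strand to 3 motifs: the TATA box TATAAA, the nuclear receptor half-site AGGTCA and the steroid receptor half-site AGAACA.
CYP4Z1: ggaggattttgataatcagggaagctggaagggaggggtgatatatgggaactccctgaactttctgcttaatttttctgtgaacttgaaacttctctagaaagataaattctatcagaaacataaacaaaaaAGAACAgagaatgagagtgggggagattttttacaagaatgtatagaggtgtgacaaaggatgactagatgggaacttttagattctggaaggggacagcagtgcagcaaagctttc
CYP4X1: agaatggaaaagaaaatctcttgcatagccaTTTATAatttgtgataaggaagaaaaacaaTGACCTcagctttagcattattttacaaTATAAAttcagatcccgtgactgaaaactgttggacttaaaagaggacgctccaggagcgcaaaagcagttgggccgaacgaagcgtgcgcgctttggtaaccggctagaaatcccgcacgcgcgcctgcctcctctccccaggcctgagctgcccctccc
CYP4Z1 held AGAACA 117 bases before the start and neither of the other motifs. CYP4X1 held TATAAA 161 bases before the start and, on the other strand, 219 bases before it, and AGGTCA on the other strand 189 bases before it. Over windows of the same length at all 35116 RefSeq promoters, 10.7% held TATAAA, 12.1% held AGGTCA and 12.4% held AGAACA, so single matches of this kind are common. A match is only a description of the letters.

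Per gene length, CYP4Z1 also led the family. In the authors' FPKM, which divide by gene length as well as depth, the level of CYP4Z1 was 21.05 ± 0.582 in trastuzumab and 6.31 ± 0.474 in parental libraries (SD, n = 3 each). It made up 51.9%, 51.2% and 50.5% of the FPKM summed over all members in trastuzumab libraries, against 31.5%, 30.2% and 32.6% in parental libraries. The next members in trastuzumab libraries were CYP4X1 at 3.63 ± 0.616, CYP2S1 at 3.16 ± 0.184, CYP2J2 at 3.10 ± 0.303 and CYP4B1 at 2.87 ± 0.262 FPKM, whose spreads overlap along the order. In parental libraries CYP4Z1 was followed by CYP4B1 at 2.85 ± 0.609, CYP2J2 at 2.50 ± 0.107 and CYP2U1 at 2.36 ± 0.208 FPKM, again with overlapping spreads. CYP4X1 stood second in the order in trastuzumab libraries and seventh in parental libraries. Summed over the 51 members, FPKM averaged 41.1 ± 1.23 in trastuzumab and 20.1 ± 0.794 in parental libraries. The CYP4 class contributed 28.0 ± 1.01 FPKM in trastuzumab and 10.1 ± 1.02 FPKM in parental libraries to those sums, and the CYP2 class 11.4 ± 0.676 FPKM in trastuzumab and 8.10 ± 0.0473 FPKM in parental libraries. Steroid and sterol P450s contributed 0.870 ± 0.121 FPKM in trastuzumab and 0.997 ± 0.225 in parental libraries, and the retinoid and orphan class 0.710 ± 0.0436 in trastuzumab and 0.727 ± 0.0777 in parental libraries. The CYP3 class contributed 0.133 ± 0.0306 FPKM in trastuzumab and 0.187 ± 0.0757 in parental libraries.

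**Figure D2:**
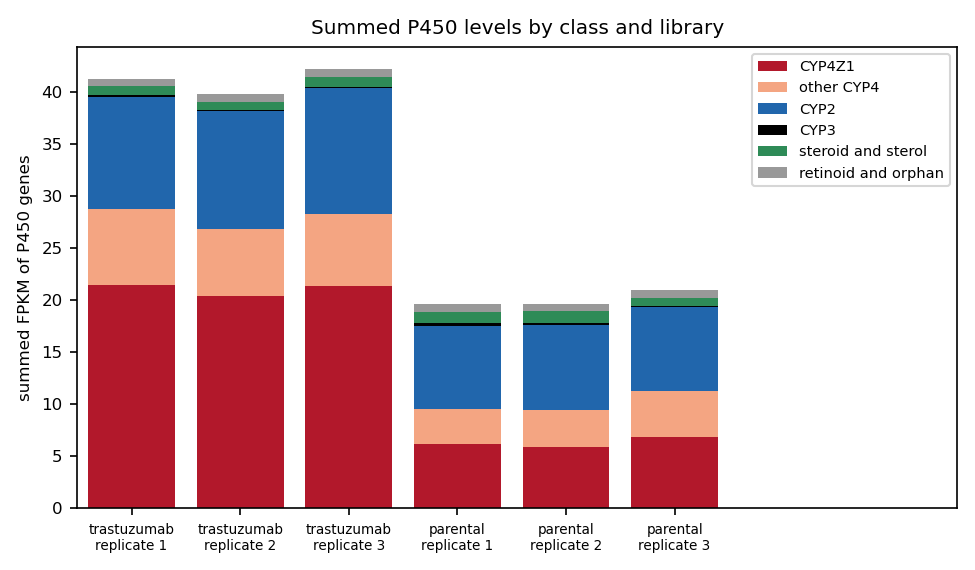
FPKM summed over the members of each class in each library (bars, linear scale from 0), with the 3 trastuzumab libraries left of the 3 parental libraries. CYP4Z1 is drawn apart from the other CYP4 genes. It takes the largest section in trastuzumab libraries, where the totals are 39.8 to 42.3 FPKM, against 19.6 to 21.0 FPKM in parental libraries.

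In the CYP2 class, 5 of the 6 genes called higher came from 1 cluster on chromosome 19. CYP2A7 was 10.5-fold higher in trastuzumab libraries, CYP2S1 3.54-fold and CYP2F1 3.47-fold, and CYP2A6 and CYP2A13 were higher as well. CYP2J2, an epoxygenase of arachidonic acid on chromosome 1, was 1.30-fold higher. CYP2U1, a hydroxylase of long-chain fatty acids, and CYP2R1, the liver hydroxylase that starts vitamin D activation, were lower.

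CYP2A7, a close relative of CYP2A6 with no known activity of its own, had 3.07, 2.95 and 3.74 CPM in trastuzumab libraries and 0.352, 0.326 and 0.248 CPM in parental libraries. The groups lay far apart, and the log2 fold change was 3.39 ± 0.28 (SE, n = 3 per group, edgeR adjusted p = 5.33e-08). CYP2A6, the main nicotine-oxidising enzyme of liver, had 0.885, 1.12 and 1.62 CPM in trastuzumab libraries and 0.352, 0.407 and 0.165 CPM in parental libraries. Every trastuzumab library was above every parental library, with a log2 fold change of 1.97 ± 0.43 (SE, n = 3 per group, edgeR adjusted p = 0.00114). CYP2A13, the airway relative, had 0.414, 0.359 and 0.387 CPM in trastuzumab libraries and no count in the 3 parental libraries. Against a floor of 3 counts per library, it was at least 9.46-fold higher (edgeR adjusted p = 0.000199). That floor may be too low, as described below, and the bound would then be smaller.

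Because these 3 genes are near-identical, reads may have been split among them, and the single values are uncertain. Summed, they had 4.37, 4.42 and 5.75 CPM in trastuzumab libraries and 0.703, 0.733 and 0.413 CPM in parental libraries. That sum does not depend on the split between the 3 genes, and it was 7.84-fold higher, with a log2 fold change of 2.97 ± 0.26 (SE, n = 3 per group, edgeR adjusted p = 8.30e-08). CYP2A6 and CYP2A7 also overlap ENSG00000268797 on the other strand, which had 1.20, 1.82 and 1.75 CPM in trastuzumab libraries and no count in parental libraries. The libraries came from a directional kit, but the strand setting of the counting is not given in the sources used here.

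CYP2A7 and CYP2A6 are also alike around their RefSeq starts, which shows how close the copies are. The regions shown, the 250 bases before the RefSeq start on the minus strand (GRCh38.p14), lie at chr19:40882232-40882481 for CYP2A7 and chr19:40850448-40850697 for CYP2A6. The CYP2A7 stretch lies inside the longer GENCODE 29 gene. Both are written 5′ to 3′ along the genes with the bases that differ in capitals.
CYP2A7: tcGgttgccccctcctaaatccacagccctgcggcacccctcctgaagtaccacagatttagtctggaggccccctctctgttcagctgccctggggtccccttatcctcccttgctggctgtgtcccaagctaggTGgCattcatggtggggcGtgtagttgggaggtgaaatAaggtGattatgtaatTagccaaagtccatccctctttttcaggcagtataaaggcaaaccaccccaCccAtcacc
CYP2A6: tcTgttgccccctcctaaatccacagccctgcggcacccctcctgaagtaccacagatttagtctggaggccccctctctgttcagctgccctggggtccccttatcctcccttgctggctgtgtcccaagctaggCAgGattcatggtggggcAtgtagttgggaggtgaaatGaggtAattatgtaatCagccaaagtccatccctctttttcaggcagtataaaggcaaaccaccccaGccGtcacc
The sequences differ at 10 of 250 bases and are 96% identical. Both hold TATAAA 29 bases before the start, and neither holds AGGTCA or AGAACA on either strand.

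CYP2S1, an enzyme of epithelia outside the liver, had 9.32, 10.5 and 10.2 CPM in trastuzumab libraries and 1.99, 2.82 and 3.66 CPM in parental libraries. The groups did not overlap, and the log2 fold change was 1.83 ± 0.19 (SE, n = 3 per group, edgeR adjusted p = 6.67e-07). CYP2F1, a lung P450, had 3.21, 2.76 and 3.72 CPM in trastuzumab libraries and 0.947, 0.856 and 0.990 CPM in parental libraries. It too showed no overlap, with a log2 fold change of 1.79 ± 0.24 (SE, n = 3 per group, edgeR adjusted p = 8.50e-06). CYP2J2 had 9.99, 10.3 and 12.0 CPM in trastuzumab libraries and 8.40, 7.81 and 8.57 CPM in parental libraries. The groups were separate but close, and the log2 fold change of 0.38 ± 0.12 (SE, n = 3 per group, edgeR adjusted p = 0.0127) no longer passed without the third trastuzumab library (adjusted p = 0.0819).

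CYP2U1 had 9.49, 9.41 and 9.25 CPM in trastuzumab libraries and 16.0, 16.4 and 14.1 CPM in parental libraries. All trastuzumab libraries were below all parental libraries, and the log2 fold change was -0.72 ± 0.10 (SE, n = 3 per group, edgeR adjusted p = 1.86e-05). CYP2U1 is 1 of 7 tested members that overlap another tested gene, with CYP2A6, CYP2A7, CYP2D6, CYP8B1, CYP19A1 and CYP27B1, and shared reads make their values less certain. CYP2R1 had 4.92, 6.42 and 4.78 CPM in trastuzumab libraries and 8.49, 7.90 and 8.50 CPM in parental libraries. These groups did not overlap either, and the log2 fold change was -0.63 ± 0.15 (SE, n = 3 per group, edgeR adjusted p = 0.00175). With GC content and gene length as offsets it was -0.32 and the call was lost (edgeR adjusted p = 0.0984). CYP2D6, the liver enzyme of many drugs, averaged 0.293 ± 0.151 CPM in trastuzumab and 0.458 ± 0.0971 CPM in parental libraries (SD, n = 3 each) and was not called (edgeR adjusted p = 0.398). Its near-identical pseudogene CYP2D7 stood at 0.346 ± 0.130 CPM in trastuzumab and 0.387 ± 0.120 CPM in parental libraries.

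**Figure D3:**
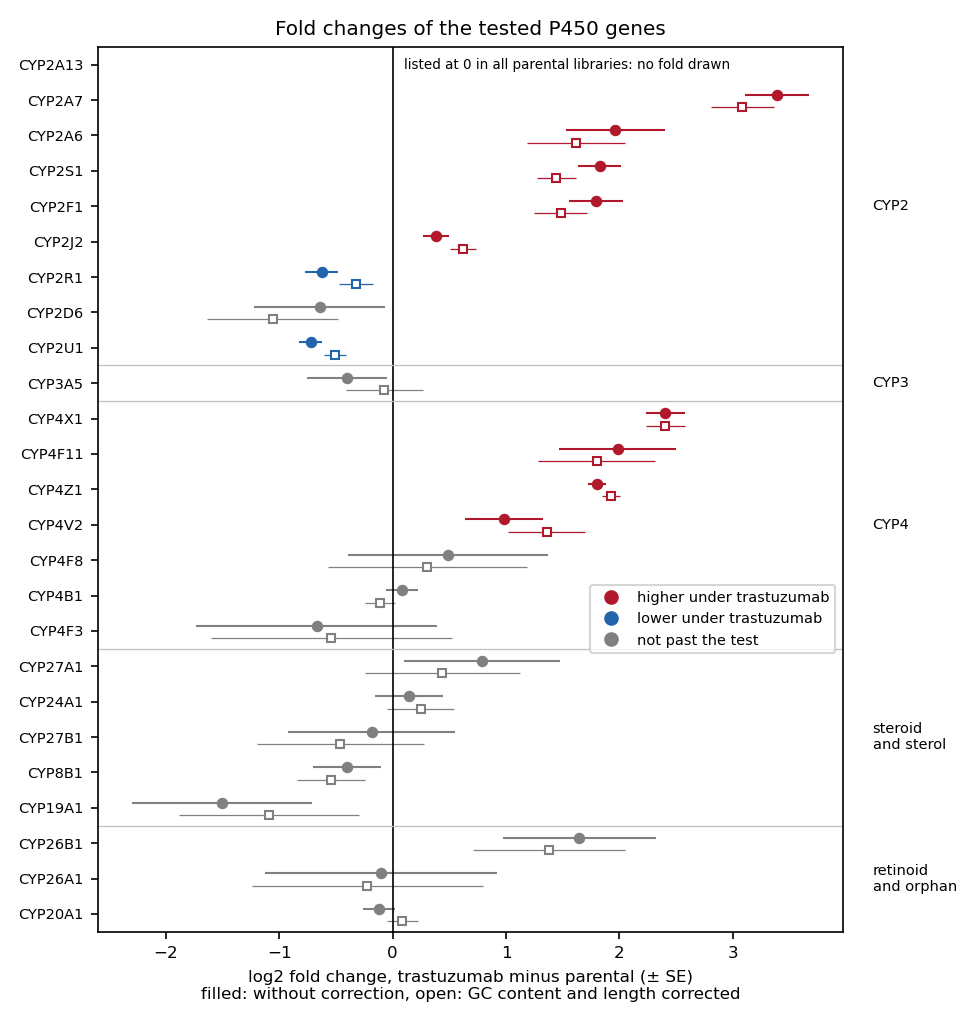
Log2 fold change of each tested P450 gene, trastuzumab minus parental, with its SE (bars). Filled points are without and open squares with correction for GC content and gene length, and the colour is the call without it. CYP2A7 and CYP4X1 lie farthest to the right and CYP2U1 and CYP2R1 are the 2 called lower (blue). CYP2A13 is listed at 0 in the parental libraries and has no point.

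The chromosome 19 cluster from CYP2T1P to CYP2S1 (hg38, GENCODE 29) spans chr19:40808474-41207539, or 399 kb. It holds 6 members, of which 5 were tested and all 5 were higher, and 8 P450 pseudogenes, of which 5 were tested and all 5 were higher. CYP2B6, the sixth member there, did not pass the filter. Of all tested genes 23.9% were higher, and CYP2A13 and the pseudogene CYP2T3P passed the filter only through the trastuzumab group, so their direction was fixed by it and the counts are a description. With GC content and length as offsets, 5 members and 4 pseudogenes were higher. The pseudogene CYP2T1P had 237, 249 and 257 CPM in trastuzumab libraries and 26.1, 30.0 and 24.6 CPM in parental libraries. Its groups lay far apart, with a log2 fold change of 3.20 ± 0.070 (SE, n = 3 per group, edgeR adjusted p = 8.84e-14). Per gene length it stood at 70.9, 74.3 and 76.8 FPKM in trastuzumab libraries and 8.24, 9.47 and 7.63 FPKM in parental libraries, above CYP4Z1 in each group. CYP2G1P, at 12.7 CPM on average in trastuzumab and 1.70 CPM in parental libraries, CYP2B7P, at 8.46 CPM in trastuzumab and 2.10 CPM in parental libraries, and CYP2F2P, at 2.15 CPM in trastuzumab and 0.789 CPM in parental libraries, had log2 fold changes of 2.90, 2.01 and 1.44. CYP2T3P, at 0.250 CPM in trastuzumab and 0.0364 CPM in parental libraries, was called (edgeR adjusted p = 0.0230) but not with GC content and length as offsets (adjusted p = 0.0634).

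CYP2T1P runs towards EGLN2, an oxygen-sensing prolyl hydroxylase gene on the other strand, and the facing ends of the genes are 40 bases apart. EGLN2 and its readthrough gene RAB4B-EGLN2 together had 295, 339 and 319.6 CPM in trastuzumab libraries and 157, 176 and 161 CPM in parental libraries. Counts were divided unevenly between those 2 genes from library to library, so only the sum is given. Without the strand setting, reads from EGLN2 past its annotated end and reads from CYP2T1P cannot be told apart. Apart from that pair, 18 other genes within 200 kb of the cluster were tested, of which 10 were higher, 1 was lower and 7 were not called, with a median log2 fold change of 0.33. Of all tested genes 23.9% were higher and 25.4% lower. With GC content and length as offsets 4 of the 18 were higher, 2 lower and 12 not called, median -0.018, against 18.7% and 19.4% of all genes. The genes counted higher include ENSG00000268797 in both fits, with no count in parental libraries. The span of ENSG00000268797 covers CYP2T1P, CYP2F2P, CYP2A6 and CYP2A7 on the other strand and overlaps EGLN2 and CYP2G1P on its own strand. How reads shared with these genes were counted is not given in the sources used here. ENSG00000268797 passed the filter only through the trastuzumab group, so the filter fixed its direction. The 5 tested P450 genes of the cluster had a median of 1.97, the same with CYP2A13 at its lower bound, or 1.62 with the offsets. The difference between these medians was not tested.

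In the chromosome 1 cluster, chr1:46757838-47149741 or 392 kb, CYP4Z1 and CYP4X1 were higher and CYP4B1 was not called, while CYP4A11 and CYP4A22 were untested. The pseudogene CYP4Z2P, a near copy of CYP4Z1, had 10.5, 8.85 and 9.20 CPM in trastuzumab libraries and 5.46, 6.70 and 4.65 CPM in parental libraries. Its log2 fold change was 0.76 ± 0.15 (SE, n = 3 per group, edgeR adjusted p = 0.000393), and reads may be shared with CYP4Z1. Of the 7 other tested genes within 200 kb, 5 were lower, 1 was higher and 1 was not called, with a median log2 fold change of -0.53. Of all tested genes 25.4% were lower and 23.9% higher. With GC content and length as offsets again 5 were lower and 1 was higher, median -0.20, against 19.4% and 18.7% of all genes. The largest falls were in PDZK1IP1 and STIL. Past CYP4A22, on the far side from CYP4Z1, the membrane protein gene PDZK1IP1 averaged 4.77 ± 0.700 CPM in trastuzumab and 11.1 ± 0.872 CPM in parental libraries, and the centriole gene STIL 17.7 ± 1.62 CPM in trastuzumab and 37.6 ± 1.15 CPM in parental libraries (SD, n = 3 each). The other clusters gave fewer values. In the CYP4F cluster 3 members were tested and 1, CYP4F11, was called higher, which is a description for the reason given above. In the CYP3A cluster only CYP3A5 was tested.

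**Figure D4:**
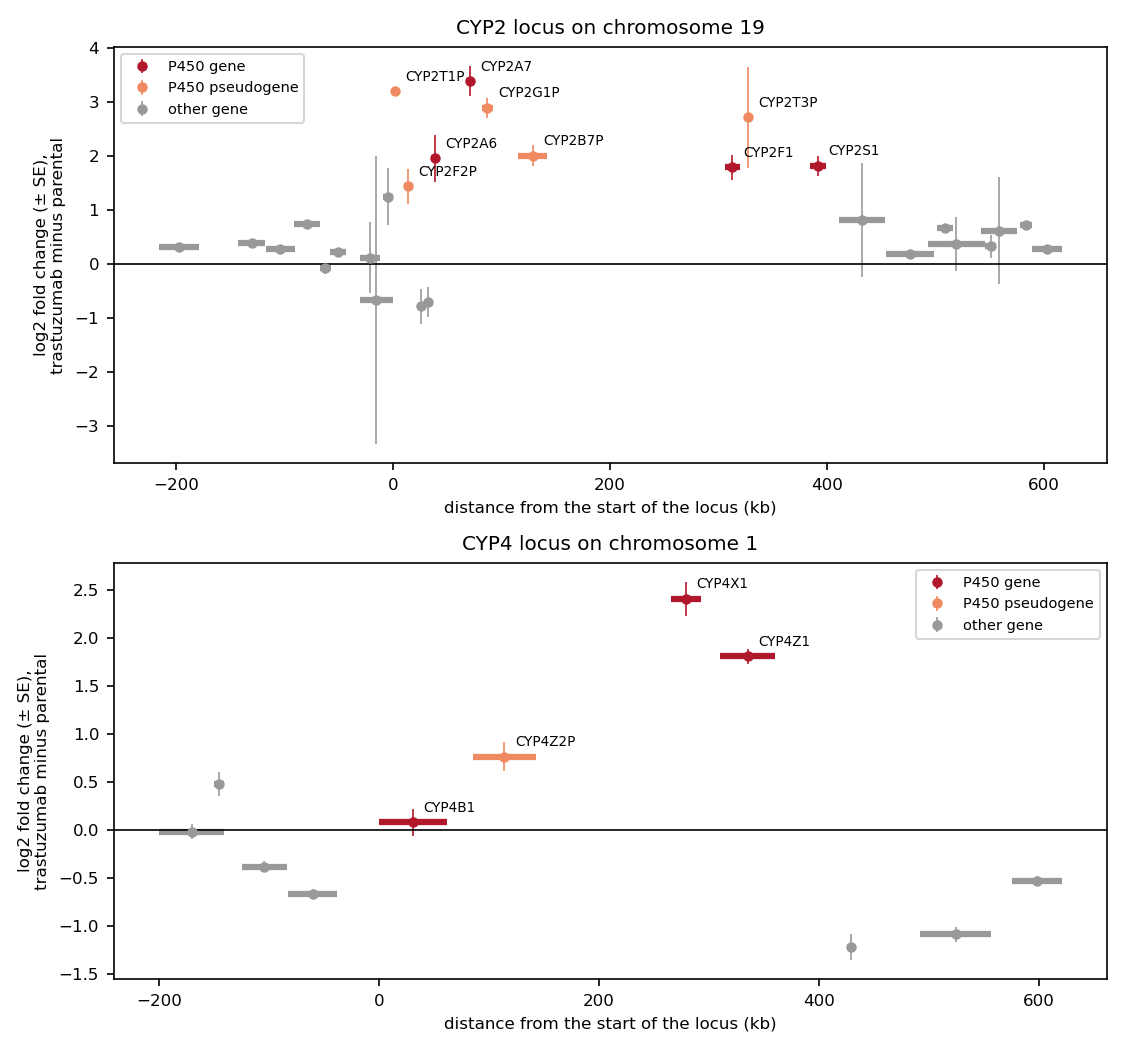
Log2 fold change, trastuzumab minus parental, with SE, for tested genes in the chromosome 19 CYP2 cluster and the chromosome 1 CYP4 cluster, by distance along the cluster in kb. P450 genes and pseudogenes of the CYP2 cluster lie at 1.44 or above without correction for GC content. CYP2A13 and ENSG00000268797, at 0 in all parental libraries, are not drawn.

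CYP3 genes were scarce. CYP3A5, a drug-metabolising enzyme also found outside the liver, had 1.80, 0.954 and 1.25 CPM in trastuzumab libraries and 2.45, 1.93 and 0.908 CPM in parental libraries. The groups overlapped, and neither edgeR (log2 fold change -0.40 ± 0.35, SE, adjusted p = 0.380) nor DESeq2 or limma-voom called it. CYP3A4, the main drug-metabolising P450 of adult liver, reached at most 0.0543 CPM and CYP3A7, its fetal relative, 0.137 CPM in any library. CYP3A43 had no count.

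None of the 5 tested steroid and sterol P450s passed the edgeR test after adjustment, 0 had an unadjusted p below 0.05, and DESeq2 called 0 and limma-voom 1 of them. CYP8B1, which directs bile acid synthesis towards cholic acid, averaged 1.65 ± 0.296 CPM in trastuzumab and 2.17 ± 0.879 CPM in parental libraries (SD, n = 3 each, edgeR adjusted p = 0.302). CYP24A1, which inactivates vitamin D, averaged 1.50 ± 0.206 CPM in trastuzumab and 1.35 ± 0.439 CPM in parental libraries, with a log2 fold change of 0.15 ± 0.30 (edgeR adjusted p = 0.730). CYP19A1, aromatase, had 0.0571, 0.297 and 0.0374 CPM in trastuzumab libraries and 0.446, 0.407 and 0.275 CPM in parental libraries. The second trastuzumab library fell between the parental ones, and the log2 fold change of -1.50 ± 0.79 was not called (edgeR adjusted p = 0.135). Without that library it passed the test (edgeR adjusted p = 0.0207), with counts of 4 and 3 in the remaining trastuzumab libraries. CYP19A1 came through the expression filter only by its parental counts, so this call and that by limma-voom are a description. CYP27A1, a mitochondrial sterol hydroxylase, averaged 0.370 ± 0.255 CPM in trastuzumab and 0.214 ± 0.0684 CPM in parental libraries. CYP27B1, which completes vitamin D activation, averaged 0.270 ± 0.206 CPM in trastuzumab and 0.305 ± 0.162 CPM in parental libraries, and it overlaps METTL1 on the same strand.

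Among the retinoid and orphan P450s, CYP26B1, a retinoic acid hydroxylase, had 0.528, 0.533 and 0.661 CPM in trastuzumab libraries and 0.108, 0.0543 and 0.385 CPM in parental libraries. The groups did not overlap, and the log2 fold change of 1.65 ± 0.67 fell just outside the threshold (SE, n = 3 per group, edgeR adjusted p = 0.0535). The third parental library was highest of its group, and without it the call was made (edgeR adjusted p = 0.00498). CYP26B1 was the 1 gene of its class with an unadjusted p below 0.05, and DESeq2 (adjusted p = 0.0438) and limma-voom (0.0156) called it. It passed the filter only through the trastuzumab group, with 8, 4 and 28 counts in parental libraries, so these calls are a description. CYP26A1, its relative, averaged 0.130 ± 0.0166 CPM in trastuzumab and 0.140 ± 0.126 CPM in parental libraries (SD, n = 3 each). CYP20A1, an orphan with no settled substrate, averaged 7.01 ± 0.649 CPM in trastuzumab and 7.61 ± 0.984 CPM in parental libraries, with a log2 fold change of -0.12 ± 0.14 (edgeR adjusted p = 0.534).

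Members below the filter are given by their highest library. In the CYP2 class CYP2B6 reached 0.0857, CYP2E1 0.136 and CYP2W1 0.137 CPM. In the CYP4 class CYP4A11 reached 0.0991, CYP4A22 0.228 and CYP4F22 0.110 CPM. Among steroid and sterol P450s CYP39A1 reached 0.258, CYP7B1 0.0991, CYP46A1 0.0543 and CYP11A1 0.0499 CPM, and in the last class CYP26C1 reached 0.149 and CYP27C1 0.0496 CPM. Members with no count in any library included CYP3A43, CYP4F2, CYP4F12, CYP7A1, CYP11B1, CYP11B2, CYP17A1 and CYP21A2. A count of 0 allows a level of up to 0.0372 to 0.0428 CPM, the worth of 3 counts, and covers counting error only. In every library the count 4 was held by more genes than 3 or 5 (993 to 1239 genes, against 608 to 680 and 350 to 380), so 1 fragment may give several counts and that limit may be too low.

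Genes that serve P450 enzymes or act in neighbouring pathways were examined as lists. Whether each listed gene serves a P450 enzyme was not tested. The list counts stand against 23.9% higher, 25.4% lower and 49.3% called of all tested genes. With GC content and length as offsets those shares were 18.7% higher and 19.4% lower. All 10 genes listed as redox partners were called by edgeR, 6 higher and 4 lower, with a median log2 fold change of 0.16. The ferredoxin reductase gene FDXR averaged 37.2 ± 0.959 CPM in trastuzumab and 23.6 ± 1.68 CPM in parental libraries, and the cytochrome b5 reductase gene CYB5R1 170.0 ± 5.31 CPM in trastuzumab and 120.7 ± 4.43 CPM in parental libraries. The ferredoxin gene FDX2, at 12.8 ± 1.11 CPM in trastuzumab and 9.79 ± 1.77 CPM in parental libraries, was higher only without the GC content and length offsets, and PGRMC2, a haem-binding partner of P450 enzymes, was lower at 57.7 ± 1.98 CPM in trastuzumab and 74.9 ± 3.87 CPM in parental libraries. POR, the oxidoreductase that feeds the microsomal enzymes, had a log2 fold change of 0.13 (edgeR adjusted p = 0.0210), which turned to -0.17 (edgeR adjusted p = 0.00112) with those offsets. With the offsets the list counted 3 higher and 3 lower, median -0.0096.

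Of 17 tested haem genes, 8 were higher and 5 lower, median 0.099, and with the offsets 1 was higher and 5 lower, median -0.024. CPOX, a late enzyme of haem synthesis, was lower at 6.96 ± 0.906 CPM in trastuzumab and 11.0 ± 0.590 CPM in parental libraries, and HMOX1, haem oxygenase, at 25.8 ± 1.85 CPM in trastuzumab and 43.8 ± 5.22 CPM in parental libraries. SLC25A38, a mitochondrial glycine carrier, was higher at 42.7 ± 0.778 CPM in trastuzumab and 31.9 ± 2.69 CPM in parental libraries. PPOX, the next enzyme after CPOX, was higher at 13.8 ± 0.671 CPM in trastuzumab and 10.2 ± 0.521 CPM in parental libraries, a call lost with the offsets (edgeR adjusted p = 0.498). Of 14 tested nuclear receptor genes known to act on P450 genes, 9 were higher and 1 lower, median 0.51. The oxysterol receptors NR1H3 (log2 fold change 1.05) and NR1H2 (0.68) and the orphan receptor NR2F2 (0.91) were higher, and the fatty acid receptor PPARG was lower (-0.85). With the offsets that list counted 9 higher and 3 lower, median 0.20.

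Retinoid genes counted 3 higher, 3 lower and 10 not called of 16 tested, median 0.096, and with the offsets again 3 higher and 3 lower, median -0.11. DHRS3, a retinal reductase, averaged 416 ± 23.8 CPM in trastuzumab and 167 ± 4.41 CPM in parental libraries, and the retinol uptake receptor STRA6 26.2 ± 2.10 CPM in trastuzumab and 10.2 ± 0.747 CPM in parental libraries. ALDH1A3, which makes retinoic acid, was also higher, at 196 ± 2.25 CPM in trastuzumab and 117 ± 4.88 CPM in parental libraries, and the fatty acid and retinoic acid carrier FABP5 was lower, at 1.61 ± 0.869 CPM in trastuzumab and 3.13 ± 0.503 CPM in parental libraries. The steroid genes other than P450s counted 9 higher, 7 lower and 5 not called of 21, median 0.23, and 8 higher and 7 lower with the offsets, median 0.13. HSD17B2, which inactivates oestradiol, was higher (log2 fold change 1.37) and so was HSD17B14 (1.27, lost with the offsets, edgeR adjusted p = 0.0519). HSD17B7, which also acts in cholesterol synthesis, was lower (-1.22), and the sterol sulphotransferase SULT2B1 lower by the most of the list's named genes (-2.48).

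Genes that handle epoxides and fatty acid oxidation products counted 4 higher, 1 lower and 3 not called of 8, median 0.37, and 3 higher and 1 lower with the offsets, median 0.16. The aldehyde dehydrogenase ALDH3B1 (log2 fold change 1.31) and the aldo-keto reductase AKR1B10 (1.10) were higher, ALDH3B2 was lower (-0.40), and the epoxide hydrolase EPHX1 was higher (0.42) only without the offsets (edgeR adjusted p = 0.0672 with them). Conjugation enzymes counted 7 higher, 7 lower and 14 not called of 28, median -0.042, and 10 higher and 7 lower with the offsets, median 0.16. UGT1A7 (-1.10) and UGT1A1 (-0.95), glucuronosyltransferases that share exons, and UGT8 (-1.16) were lower, and the sulphotransferase SULT1A2 (0.80) was higher. Each of the 7 lists held genes called in both directions, with and without the offsets.

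Fold changes moved with GC content over all genes. Across 13569 tested protein-coding genes, Spearman's rho of the log2 fold change with GC content was 0.554, and across the 25 tested members it was 0.445, given as a description since genes of a library are not independent. The called members had a GC content of 40.9% to 61.0%. With GC content and length as offsets, 10 members were higher and 1 lower, against 18.7% and 19.4% of all genes then tested, and the median over members was 0.31. The part of GC content, or of the immune and endothelial marker levels given above, in the P450 results was not tested further.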

How the data were processed

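RNA was measured in 3 trastuzumab and 3 parental SKBR3 libraries. The authors deposited whole-number counts per gene for 60612 Ensembl identifiers, with no normalization, and FPKM, normalized to gene length and depth, for 33686. STAR 2.4.2a and hg38 are named in the submitters' processing notes. How reads were counted (program, annotation, strand setting) was not given in the sources used here. Gene types and positions came from GENCODE 29, which placed 58394 identifiers.

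Counts were tested with edgeR 4.0.16 (R 4.3.3: TMM scaling, filterByExpr by group, robust quasi-likelihood fit, Benjamini-Hochberg adjustment over all tested genes, threshold 0.05). The steps were run on simulated counts in which few genes changed and no GC trend was set. A change as wide as in these data was not simulated. CPM used TMM-scaled depths. The GC content and length offsets were smooth curves (splines, 5 degrees of freedom). Deposited FPKM were used for levels per length and, as log2(FPKM + 1) or log2(FPKM + 0.1), in limma 3.58.1 fits. DESeq2 1.42.0 was another alternative. No libraries were duplicates. The check of whether replicate numbers pair the libraries is given with the alternatives.

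The members, pathway lists and marker lists were chosen with earlier results of these data known. Every tested member is named. From each pathway list, the named genes are up to 4 calls with the largest fold changes whose higher group averaged 1 CPM or more. POR, ERBB2, COL1A1, CD68, PTPRC, CDH5, PECAM1, EGLN2 and the other cluster genes were singled out after their values were seen.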

Additional observations from a re-analysis of the deposited data

How the results depend on the processing

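Of 234 values of the 12 called members under alternatives, 222 kept direction and call, 12, from 4 genes (CYP2J2, CYP2R1, CYP4F11 and CYP4V2), kept direction but missed the threshold, and 0 reversed. The 10 higher and 2 lower calls were 8 in CYP2, 4 in CYP4 and 0 in the steroid and sterol and the retinoid and orphan classes. When each group had to average 1 CPM or more, and with limma on log2(FPKM + 1) or log2(FPKM + 0.1), members called higher numbered 4, with 4 CYP2 and 2 CYP4 genes changed, because fewer members were tested (11, or 7 for FPKM). With limma on log2(FPKM + 0.1) and no filter, 2 CYP4 genes changed. CYP26B1 made 1 retinoid and orphan gene changed with upper quartile factors, no low-count filter, DESeq2, limma-voom and protein-coding genes alone. CYP19A1 made 1 steroid and sterol gene changed with limma-voom. GC content and length offsets, alone or with the replicate block, left 1 member called lower. Other causes were not tested.

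Leaving out 1 library at a time gave 8 to 10 members higher, 2 to 3 lower, 7 to 8 CYP2, 3 to 4 CYP4, 0 to 1 steroid and sterol and 0 to 1 retinoid and orphan genes changed.

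Samples with the same replicate number hardly deviated together (correlations of 0.0198, 0.0365 and 0.0365, none over 0.1), so the numbers were not taken to pair the libraries, although each library correlated best with its own number. With the replicate block, 11 members were higher, 2 were lower, 1 retinoid and orphan gene changed, and 8653 genes changed in all, against 8808 without it.

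Log2 fold changes that reversed all belonged to members that were not called. CYP4F8 was -0.28 with limma-voom, -0.21 with the replicate block, -0.38 with the block and offsets, and -1.39 to 0.98 when 1 library was left out. CYP26A1 was 0.99, 0.38 and 0.26 in the first 3 of these fits, and -0.68 to 0.56 when 1 library was left out. CYP4B1 was -0.11 with the offsets, -0.093 with block and offsets, and -0.011 to 0.28 when 1 library was left out. CYP20A1 was 0.087 with the offsets and 0.092 with block and offsets. When 1 library was left out, CYP24A1 ranged over -0.054 to 0.42 and CYP27B1 over -0.91 to 0.30. The summed CYP2A value was added after the data were seen. Depth limits the members under 1 CPM.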
